A study of Mus musculus with 6 samples.

Results

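The data here describe 43 genes of macrophages and other leukocytes in the left ventricle of the mouse heart after pressure overload. The genes were taken by symbol, as general macrophage genes, markers of resident and of monocyte-derived macrophages, chemokines, neutrophil genes, Fc receptors and their adaptors, subunits of the phagocyte oxidase, and genes of all leukocytes. The array's annotation gave 75 probes to 42 of them and none to *Cd68*. A probe was kept when its detection p was below 0.01 on at least 2 of 6 arrays. This left 44 probes and 33 genes, out of 9577 genes in all.

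The 6 arrays each held RNA of 1 male C57BL/6 mouse, operated on at 6 to 8 weeks of age and examined 3 weeks later by the labels, whereas the study's text gives a longer time after surgery. Transverse aortic constriction (TAC) narrows the aortic arch and loads the ventricle with pressure, and Sham is the operation without the band. WT Sham was mouse 444, WT TAC 1 was mouse 445 and WT TAC 2 was mouse 17, all wild type. *Kdm3a*-Tg mice carry a Flag-tagged *Kdm3a* cDNA, which encodes a demethylase of histone H3 lysine 9, under the αMHC promoter, which drives it in heart muscle cells and not in leukocytes. Tg Sham was mouse 454, Tg TAC 1 was mouse 446 and Tg TAC 2 was mouse 18. The study worked with more than 1 transgenic line, and the labels do not say which line these mice came from.

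Macrophages are the most abundant leukocytes of the healthy mouse heart. Resident macrophages, many of which carry *Lyve1*, *Timd4* and *Folr2*, renew themselves in the tissue, whereas monocytes that express the chemokine receptor *Ccr2* enter from the blood after injury and become macrophages there. Neutrophils, which store the calcium-binding proteins *S100a8* and *S100a9*, are short-lived cells of the blood and of early injury. In RNA of a whole ventricle, fewer cells of a type and less RNA per cell cannot be told apart.

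The *Kdm3a* probe, read first as a check of the labels, gave intensities of 341 in WT Sham, 30614 in WT TAC 1, 229 in WT TAC 2, 247 in Tg Sham, 34642 in Tg TAC 1 and 33540 in Tg TAC 2. The library labelled WT TAC 1 thus held the high signal of the transgene, and the library labelled Tg Sham did not. Both keep their labels here, and results that rest on them are given without them where a fit remains. Among the 4 mice 444, 445, 446 and 454 (mice 444 to 454), the TAC arrays were also the arrays with high *Kdm3a* signal, so surgery and *Kdm3a* signal cannot be told apart there. Detected probes numbered 15643 to 16492 per array.

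Values are normalized log2 intensities, 1 probe per gene, and are listed in the order WT Sham, the library labelled WT TAC 1, WT TAC 2, the library labelled Tg Sham, Tg TAC 1 and Tg TAC 2 (array order). Levels of different probes are not compared, since probes differ in brightness.

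Most of the measured genes followed 1 pattern: they were highest in the library labelled WT TAC 1 or in Tg TAC 1, and lower in both Sham hearts and in the TAC hearts of mice 17 and 18. The highest of the 6 values fell on the library labelled WT TAC 1 for 22 of 33 genes, on Tg TAC 1 for 10 and on Tg TAC 2 for 1, the hemoglobin scavenger receptor *Cd163*. The median of the 33 genes, each set against its own mean over the arrays, was -0.13, 0.39, -0.10, -0.28, 0.26 and -0.14 in array order. Over all 9577 genes the same median stayed between -0.04 and 0.02.

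**Figure D1:**
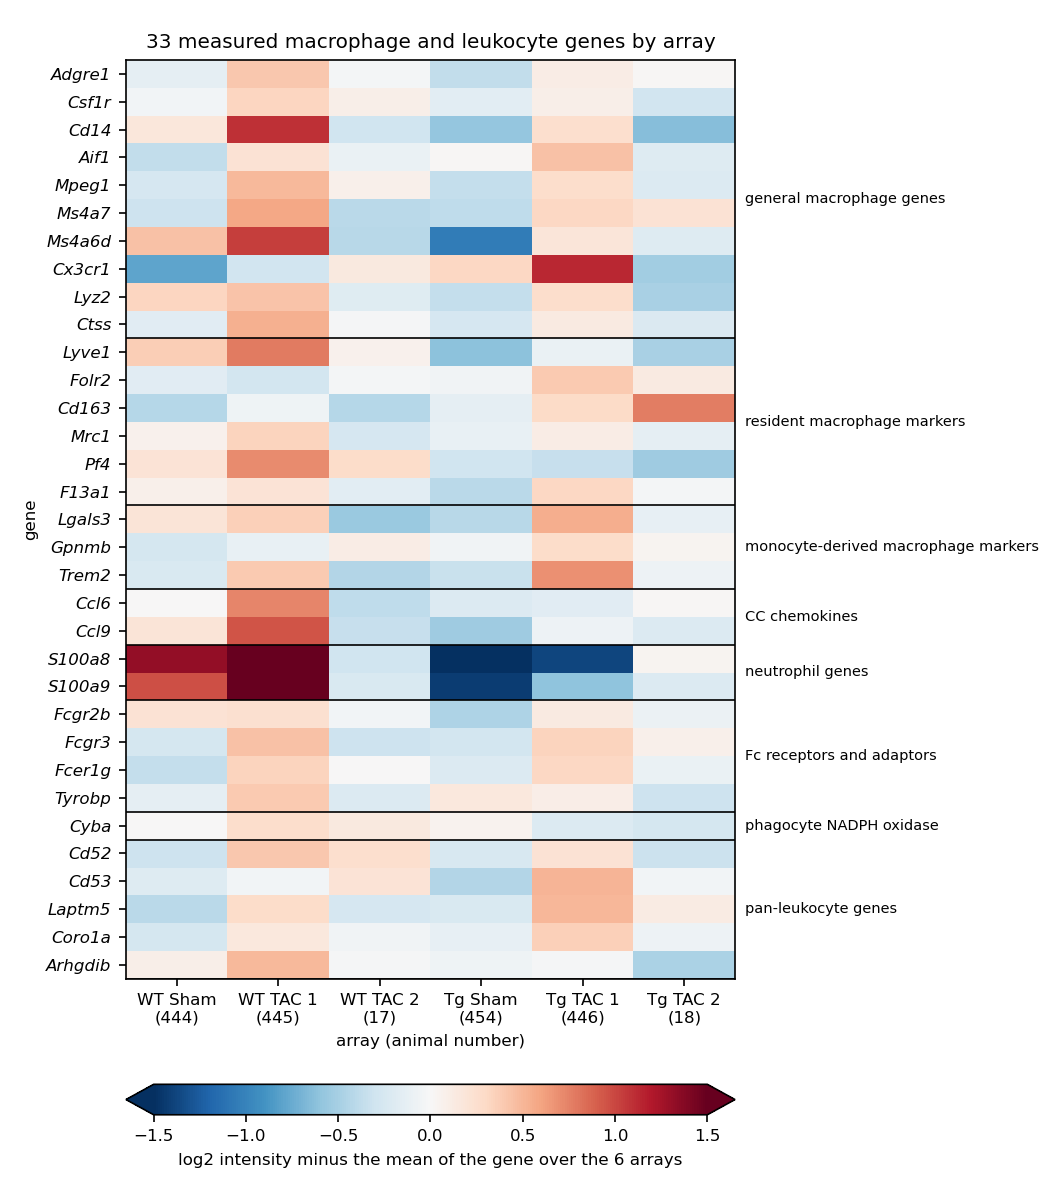
Heat map of the 33 measured genes (rows, by role) on the 6 arrays (columns, with the animal number). Colour is the log2 intensity minus the mean of the gene over the 6 arrays, from blue (below) to red (above), and colours saturate at 1.5. Red fills most of the columns labelled WT TAC 1 and Tg TAC 1, and the neutrophil genes *S100a8* and *S100a9* follow another order.

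Of 11 general macrophage genes, 10 were measured. *Cd14*, the co-receptor for bacterial lipopolysaccharide, had log2 values of 7.85, 8.78, 7.39, 7.10, 7.94 and 7.04 in array order. *Ms4a7*, a membrane protein of macrophages, had 6.98, 7.88, 6.89, 6.91, 7.60 and 7.51. *Mpeg1*, which encodes the pore-forming protein perforin-2, had 7.05, 7.79, 7.38, 6.95, 7.57 and 7.10. *Mpeg1* was higher in each TAC heart than in both Sham hearts, whereas *Cd14* in TAC mice 17 and 18 lay below WT Sham and *Ms4a7* in mouse 17 lay below both Sham hearts.

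*Adgre1*, which encodes the macrophage surface protein F4/80, had 7.89, 8.43, 7.99, 7.66, 8.14 and 8.04, again with each TAC heart above both Sham hearts. A second probe of *Adgre1* overlapped between the groups, at 7.06, 8.14, 7.48, 6.78, 7.80 and 7.03. *Ms4a6d*, another Ms4a family member, had 8.36, 8.95, 7.50, 6.87, 8.10 and 7.73. Its value in the library labelled Tg Sham was the lowest, a difference of -1.49 from WT Sham.

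The fractalkine receptor *Cx3cr1* did not follow that order, with 5.99, 6.49, 6.93, 7.09, 7.91 and 6.26. It was lowest in WT Sham and highest in Tg TAC 1. *Lyz2*, which encodes lysozyme and is used to mark myeloid cells, had 11.12, 11.22, 10.61, 10.44, 11.06 and 10.31 with the brighter probe. A second probe had 9.36, 9.99, 9.83, 9.71, 10.09 and 9.91, and there each TAC heart lay above both Sham hearts. The probes of *Lyz2* disagreed on surgery, with TAC minus Sham differences of 0.02 and 0.42, and *Lyz1* is a near-identical copy whose share of either signal is not known. The growth factor receptor *Csf1r* ranged from 8.35 to 8.96, the calcium-binding protein *Aif1* from 6.34 to 7.15 and the lysosomal protease cathepsin S (*Ctss*) from 5.80 to 6.58.

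Of 7 resident macrophage markers, 6 were measured, and they did not share 1 order. *Lyve1*, a hyaluronan receptor also made by lymphatic endothelium, had 8.46, 8.87, 8.15, 7.47, 7.99 and 7.60 in array order. *Pf4*, a chemokine of platelets that cardiac resident macrophages also express, had 9.51, 10.01, 9.58, 9.01, 8.96 and 8.77. Both were higher in each array labelled WT than in each array labelled Tg. *Cd163* ran the other way among the TAC hearts, with 7.52, 7.89, 7.52, 7.81, 8.24 and 8.72, and Tg TAC 2 was its highest array.

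The folate receptor *Folr2* had 7.44, 7.33, 7.58, 7.55, 8.0 and 7.74, a narrow range that was highest in both Tg TAC hearts. The coagulation factor subunit *F13a1* had 9.87, 10.00, 9.63, 9.38, 10.10 and 9.76, and the mannose receptor *Mrc1* ranged from 9.22 to 9.81. *Timd4*, a receptor for phosphatidylserine on dying cells, was detected on at most 1 array and has no level here.

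Of 4 markers of monocyte-derived macrophages, the receptor *Ccr2* was detected on no array with either of its probes, so the defining gene of the group has no level. *Trem2*, a lipid receptor of macrophages, had 5.77, 6.39, 5.56, 5.67, 6.69 and 5.92 in array order. *Lgals3*, which encodes galectin-3, had 8.76, 8.92, 8.0, 8.14, 9.11 and 8.44. Both were highest in the library labelled WT TAC 1 and in Tg TAC 1. The glycoprotein *Gpnmb* ranged only from 5.75 to 6.29.

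The chemokine *Ccl9* had 9.22, 9.97, 8.68, 8.49, 8.95 and 8.82, and *Ccl6* had 6.03, 6.76, 5.65, 5.83, 5.86 and 6.05. Both were highest in the library labelled WT TAC 1 and stood apart there from the other TAC hearts. *Ccl2*, the main ligand of *Ccr2*, was detected on at most 1 array.

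The neutrophil genes had their own order. *S100a8* had 8.65, 9.20, 7.04, 5.79, 5.96 and 7.38 in array order, and *S100a9* had 7.07, 7.60, 5.87, 4.68, 5.50 and 5.90, where the value of the library labelled Tg Sham was not detected. Both genes were highest in WT Sham and in the library labelled WT TAC 1, between in the TAC hearts of mice 17 and 18, and lowest in the library labelled Tg Sham and in Tg TAC 1. Of 12 other neutrophil markers 3 were detected, and of these the siderophore binder *Lcn2* had 6.86, 7.03, 6.36, 5.88, 5.95 and 6.30, the same order as *S100a8* in its highest and lowest pairs. The granule protease *Mmp9* had 5.67, 5.68, 5.64, 5.19, 5.33 and 5.65, lowest in the same pair. The receptor *Csf3r* had 5.31, 5.19, 5.25, 5.05, 5.46 and 5.24 and did not follow that order, being highest in Tg TAC 1. The lowest detected signal was 5.27 to 5.44 per array. *Csf3r* throughout and *Mmp9* in its lowest pair stood near or below it, so their orders carry little weight.

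Among Fc receptors and adaptors, the signalling chain *Fcer1g* had 9.15, 9.84, 9.51, 9.30, 9.82 and 9.41 in array order, with each TAC heart above both Sham hearts. The activating receptor *Fcgr3* had 7.48, 8.19, 7.43, 7.47, 8.08 and 7.82, with WT TAC 2 level with the Sham hearts. The inhibitory receptor *Fcgr2b* ranged from 7.28 to 7.98 and the adaptor *Tyrobp* from 6.81 to 7.51. The high-affinity receptor *Fcgr1* was detected on at most 1 array.

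Of the phagocyte NADPH oxidase, which makes superoxide, only the p22phox subunit *Cyba* was measured, and many cell types besides phagocytes make it. It had 10.47, 10.72, 10.61, 10.51, 10.25 and 10.19, lowest in both Tg TAC hearts. The catalytic subunit *Cybb* and the cytosolic subunit *Ncf1* were detected on no array.

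Of 8 pan-leukocyte genes, 5 were measured. *Laptm5*, a lysosomal membrane protein of blood cells, had 10.48, 11.16, 10.64, 10.66, 11.39 and 11.01, and mouse 17 lay just under Tg Sham, where the other TAC hearts lay above both Sham hearts. The tetraspanin *Cd53* had 6.19, 6.35, 6.59, 5.95, 6.90 and 6.34, the actin-binding protein *Coro1a* had 8.39, 8.81, 8.60, 8.53, 9.01 and 8.57, and in both each TAC heart lay above both Sham hearts. Of 3 other kept probes of *Coro1a*, 1 gave the same separation, 1 overlapped (7.62, 8.21, 7.93, 7.84, 8.48 and 7.68) and 1 had a TAC minus Sham difference of -0.14. The surface glycoprotein *Cd52* had 7.92, 8.64, 8.48, 7.99, 8.45 and 7.91. *Arhgdib* ranged from 8.95 to 9.91. The pan-leukocyte phosphatase *Ptprc* (CD45) and the integrin chains *Itgam* (CD11b) and *Itgb2* (CD18) were detected on no array, so the usual defining genes of leukocytes have no level in these hearts.

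PU.1 is the transcription factor on which macrophage genes commonly depend, and its core motif GAGGAAG was sought on both strands in RefSeq promoter windows of GRCm38.p6, each 250 bases before to 50 bases after a gene's start. Windows were found for 34 of the 43 genes, and 13 of 42 windows (31.0%) held the motif, against 13.6% of 32851 windows of all genes. The 11 genes with it were *Cd53*, *Ctss*, *F13a1*, *Fcgr1*, *Fcgr3*, *Itgam*, *Laptm5*, *Mrc1*, *Pf4*, *S100a8* and *Trem2*. They include genes of the common order and genes that did not follow it, such as *Pf4* and *S100a8*. The 120 bases before the start are shown for 4 of them that the results turn on, chosen because each holds 1 match there, with the match in capitals. All 4 matches read CTTCCTC on the gene's strand, which is the motif on the other strand.
*Laptm5* (chr4:130913196-130913315, + strand): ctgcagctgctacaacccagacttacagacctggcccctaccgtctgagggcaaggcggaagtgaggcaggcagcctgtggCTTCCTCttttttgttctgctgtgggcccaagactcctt
*Trem2* (chr17:48346281-48346400, + strand): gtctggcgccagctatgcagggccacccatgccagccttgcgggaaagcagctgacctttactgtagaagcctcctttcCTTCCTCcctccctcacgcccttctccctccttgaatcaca
*Fcgr3* (chr1:171059395-171059514, - strand): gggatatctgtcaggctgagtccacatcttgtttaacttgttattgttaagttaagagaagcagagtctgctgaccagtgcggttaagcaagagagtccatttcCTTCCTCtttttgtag
*Pf4* (chr5:90772315-90772434, + strand): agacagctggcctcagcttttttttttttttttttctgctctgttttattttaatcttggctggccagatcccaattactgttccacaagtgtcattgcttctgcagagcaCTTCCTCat

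The match began 39 bases before the start in *Laptm5*, 41 in *Trem2*, 16 in this start of *Fcgr3* and 9 in *Pf4*. These are matches of letters, and binding was not measured.

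Pressure overload itself was addressed by TAC against Sham, with 4 TAC and 2 Sham hearts in an additive limma fit of genotype and surgery. No gene of the 33 passed, and the values leaned to higher levels after TAC: 30 of 33 differences were above 0, with a median of 0.27 against 0.03 over all genes. All 10 general macrophage genes, all 6 resident markers and all 3 markers of monocyte-derived macrophages had positive differences, with medians of 0.34, 0.18 and 0.24. Those below 0 were *Tyrobp* and *Arhgdib* at -0.02 and *Cyba* at -0.05. No gene of all 9577 was called at an adjusted p below 0.05 (0%), and 559 had an unadjusted p below 0.05, *Laptm5* alone among the members. *Laptm5* was 11.05 ± 0.32 (SD, n = 4) after TAC and 10.57 ± 0.12 (n = 2) after Sham, a log2 difference of 0.48 ± 0.19 (SE) with an adjusted p of 0.82 by limma. The groups did not overlap for 5 members, all higher after TAC (*Adgre1*, *Mpeg1*, *Fcer1g*, *Cd53* and *Coro1a*), against 6.62% of all genes. Without the library labelled WT TAC 1 and that labelled Tg Sham, the comparison rested on WT TAC 2 and WT Sham, 16 of 33 differences were positive and the median was -0.05.

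Within each genotype the sham arm is a single mouse. WT TAC against WT Sham gave positive differences for 25 of 33 members with a median of 0.22, and Tg TAC against Tg Sham for 28 with a median of 0.33, and no gene was called in either (0% and 0%). The second of these has no fit without the library labelled Tg Sham. An interaction fit of genotype and surgery called 0 of 9577 genes, and no member had an unadjusted p below 0.05.

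The lean differed between single mice. In the mouse labelled WT TAC 1, 32 of 33 members lay above WT Sham, with a median difference of 0.52, and in Tg TAC 1, 30 lay above Tg Sham, with a median of 0.49. In WT TAC 2 the count was 16 with a median of -0.05, and in Tg TAC 2 it was 22 with a median of 0.15. Both differences were positive for 29 members (87.9%) with the mice of replicate 1, against 36.3% of all genes, and for 10 members (30.3%) with mice 17 and 18, against 34.1% of all genes. In each Tg and WT mouse alone, between 50.5% and 56.6% of all genes were above Sham.

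**Figure D2:**
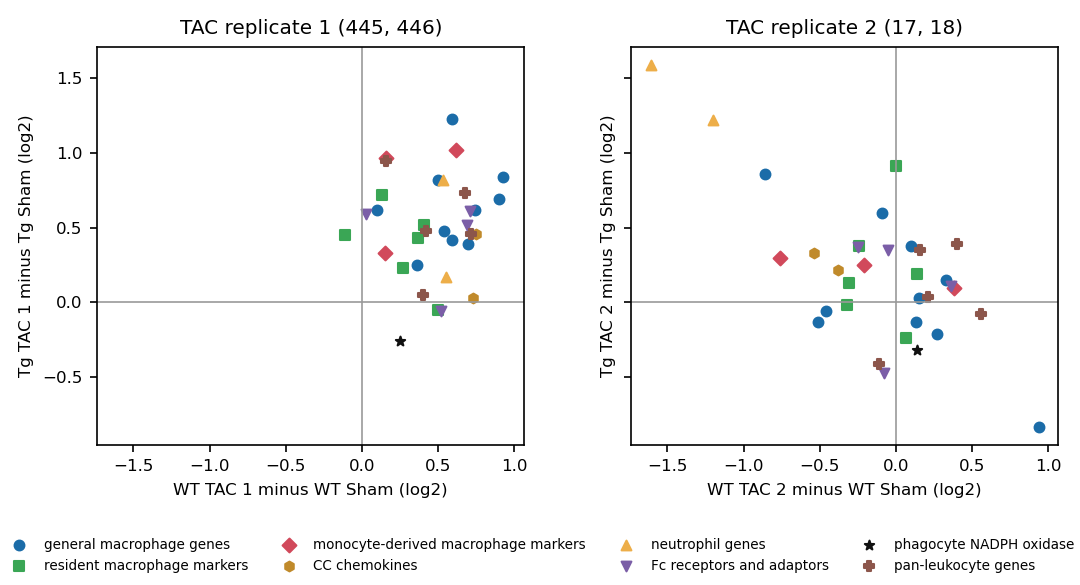
Log2 difference of a single TAC mouse from the Sham mouse of its genotype label, WT on the x axis and Tg on the y axis, with 1 point per gene and shapes and colours by role. With the mice of replicate 1 (left; 445 and 446) 29 of 33 points lie above 0 on both axes, and with those of replicate 2 (right; 17 and 18) 10 do.

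Fitted in mice 444 to 454 only, a choice made after the values were seen that leaves 1 residual degree of freedom, TAC against Sham called 15 members, all higher, while 12.2% of all genes were called. The same number series entered as a term over all 6 arrays called 1 member, while 0.971% of all genes were called. That member was *Laptm5*, with a difference of 0.70 ± 0.11 (SE) and an adjusted p of 0.041 by limma, and in mice 444 to 454 its adjusted p was 0.00057. Each difference is the same in both fits by design, since no Sham mouse shares the number series of mice 17 and 18 and the term takes those mice up. The median over the 33 members was 0.51, with 32 positive. Higher calls were 659 of 1165 in mice 444 to 454 and 65 of 93 with the series as a term. With median scaling they were 1080 of 1393, with 21 members called, and 77 of 92. The 15 were *Adgre1*, *Cd14*, *Mpeg1*, *Ms4a7*, *Ms4a6d* and *Cx3cr1* of the general macrophage genes, *Lgals3* and *Trem2* of the monocyte-derived markers, *Ccl9*, *S100a9*, *Fcgr3*, *Fcer1g*, *Cd52*, *Laptm5* and *Coro1a*. Of these, *Ms4a6d*, *Cx3cr1*, *Ccl9* and *S100a9* overlapped between TAC and Sham. The call of *S100a9* also rests on an undetected value, 4.68 in the library labelled Tg Sham, where the lowest detected signal was 5.44. The 6 measured resident markers had differences between 0.17 and 0.46 and none was called. The groups did not overlap for 18 members, all higher after TAC, against 22.1% of all genes. Of 8 fibroblast markers, 4 were called higher and 1 lower in that fit, with a median of 0.55. The largest differences among the members called were 0.91 for *Ms4a6d*, 0.89 for *Cd14*, 0.82 for *Trem2* and 0.79 for *Ms4a7*. Surgery and *Kdm3a* signal cannot be told apart in these 4 mice, nor in the fit with the series as a term. The difference between the resident and the other markers was not tested.

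The members also differed by the series of animal numbers. Both Sham mice carry numbers of the same series as mice 445 and 446, so this difference rests on the TAC hearts alone. With genotype and surgery in the fit, mice 445 and 446 lay above mice 17 and 18 for 32 of 33 members. The median was 0.45, against -0.03 over all genes. The members' medians by array were -0.13 and -0.28 in WT Sham and the library labelled Tg Sham, and -0.10 and -0.14 in mice 17 and 18. Of all genes 7.22% were called and 4.15% were called higher in mice 445 and 446, and 2 members were called, both higher. With median scaling, which moved the median of all genes to 0.17, 755 of 895 calls were higher in place of 397 of 691, and 8 members were called. *Cd14* differed by 1.15 ± 0.18 (SE) with an adjusted p of 0.015 by limma, and *Lyz2* by 0.68 ± 0.15 with an adjusted p of 0.037. The second probe of *Lyz2* differed by only 0.17 between the TAC hearts. In the TAC hearts alone, 21 members were higher without overlap in mice 445 and 446, against 20.6% of all genes. Neither call held without 1 of the TAC hearts of mice 445 and 446. Without the library labelled WT TAC 1 the adjusted p was 0.11 for *Cd14* and 0.056 for *Lyz2*, and without Tg TAC 1 it was 0.06 and 0.32. Without Tg TAC 2, 14 members and 1501 genes were called. The labels do not say what the number series stands for, and no fit with it remains without the pair of libraries at odds with the *Kdm3a* probe.

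Markers of other cell types also differed by the series. All 8 fibroblast markers were higher in TAC mice 445 and 446 than in mice 17 and 18, with a median of 0.71. Of these markers, 4 were called. The collagen *Col1a1* had 9.56, 10.52, 8.87, 9.06, 10.29 and 8.51 in array order, a difference of 1.72 ± 0.13 (SE) with an adjusted p of 0.0026 by limma. Their medians by array, 0.01, 0.39, -0.26, -0.17, 0.58 and -0.40, were highest on the same arrays as those of the macrophage genes. Of 7 measured cardiomyocyte markers 6 were lower in mice 445 and 446 than in mice 17 and 18, with a median of -0.13. The calcium channel *Ryr2* was called at -0.52. Of 9 measured endothelial markers 7 were higher, with a median of 0.28, and the guidance receptor *Robo4* was called at 0.61 (adjusted p = 0.033 by limma). Of 4 lymphatic endothelium markers 2 were higher and 2 lower. *Pdpn*, also made by fibroblasts, was called at 0.83 (adjusted p = 0.032 by limma). *Flt4* at 0.52, *Ccl21a* at -0.07 and *Prox1* at -0.13 were not called. The part of cell composition or of batch in the members' difference was not tested.

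**Figure D3:**
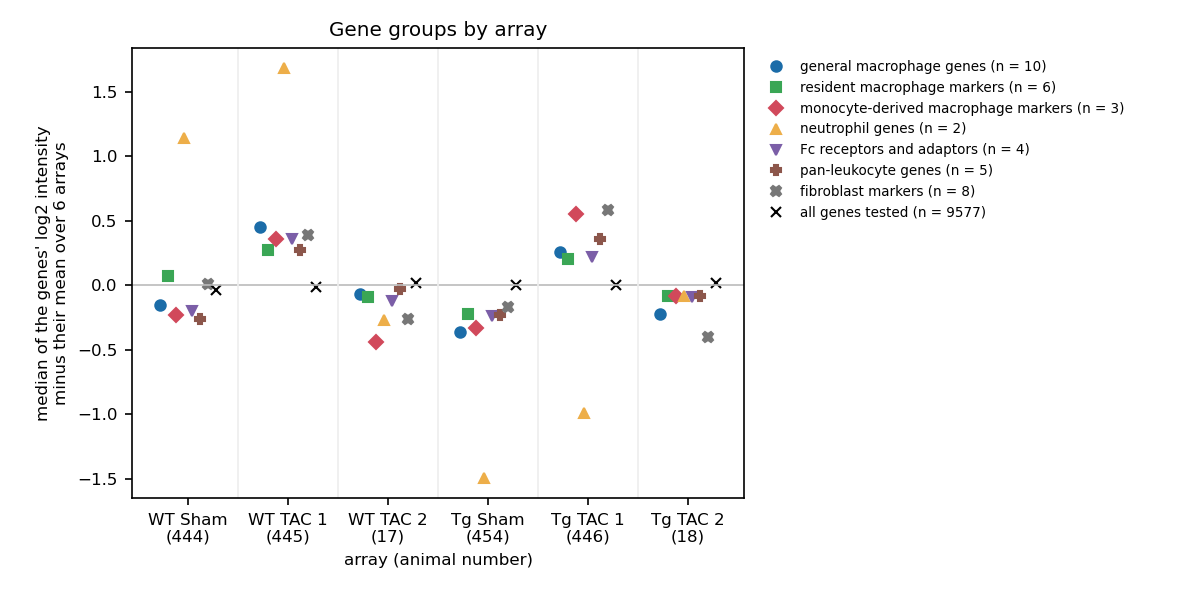
Median of each gene group on each array (x axis, with the animal number), as log2 intensity minus the mean of each gene over the 6 arrays (y axis). Macrophage, Fc receptor, pan-leukocyte and fibroblast groups lie above 0 in the library labelled WT TAC 1 and in Tg TAC 1, the neutrophil genes are at 1.14 and 1.68 in the library of WT Sham and that labelled WT TAC 1, and all genes lie near 0.

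The overexpression of *Kdm3a* under pressure was addressed by Tg TAC against WT TAC, 2 hearts against 2. No gene was called (0%), and the members leaned neither way: 13 were higher and 20 lower, with a median of -0.11 against 0.01 over all genes. Groups did not overlap for 2 members that were higher, *Cd163* and *Folr2*, against 20.7% of all genes, and for 4 that were lower, *Pf4*, *Lyve1*, *Cyba* and *Cd52*, against 18.8%. Both counts are at or under the share of all genes. The second probes of *Folr2* (7.56 and 7.77 in WT TAC, 7.87 and 7.74 in Tg TAC) and of *Cd52* (6.14 and 5.95, 6.02 and 5.61) did overlap. *Cd163* was 8.48 ± 0.34 (SD, n = 2) in Tg TAC and 7.71 ± 0.26 (n = 2) in WT TAC, a difference of 0.77, and *Pf4* was 8.87 ± 0.14 and 9.79 ± 0.31, a difference of -0.92. The smallest adjusted p among the members was 0.67 by limma. The library labelled WT TAC 1 carried a *Kdm3a* signal like that of the Tg TAC hearts, and without it 23 of 33 members were higher in Tg TAC. That count sets mouse 17 alone against mice 446 and 18, so it mixes genotype with the number series. The share of all genes that were higher there was not counted.

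Tg Sham against WT Sham compared 1 mouse with 1, with no replicate check and no test. Past 1.5-fold, 1 member was higher, *Cx3cr1* by 1.11, against 7.14% of all genes. In the other direction 9 members were lower, against 6.36% of all genes: *S100a8*, *S100a9*, *Ms4a6d*, *Lyve1*, *Cd14*, *Ccl9*, *Lyz2*, *Fcgr2b* and *Lgals3*. The differences were -2.86 for *S100a8*, -1.49 for *Ms4a6d* and -0.99 for *Lyve1*. The second probe of *Lyz2* ran the other way, with 9.71 in the library labelled Tg Sham and 9.36 in WT Sham. *S100a9* was at least 3.1-fold higher in WT Sham, where the value of the library labelled Tg Sham stands at the detection limit. Median scaling moved the median of all genes from 0.04 to -0.20 and that of the members from -0.12 to -0.40. The library labelled Tg Sham also held no high *Kdm3a* signal.

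Over both surgeries, a genotype difference was fitted after the values were seen. No gene was called (0%), with a smallest adjusted p of 0.21 by limma among the members. No member was higher in Tg without overlap (9.54% of all genes were), and 2 were lower, *Pf4* and *Lyve1* (9.09% of all genes were). Without the libraries labelled WT TAC 1 and Tg Sham, 2 genes and 0 members were called and 23 of 33 members were higher in Tg. *Pf4* differed by -0.78, *Lyve1* by -0.80, *S100a8* by -1.92 and *S100a9* by -1.48 over all 6 arrays. Without the same libraries the differences were -0.71 for *Pf4*, -0.35 for *Lyve1*, -0.36 for *S100a8* and -0.16 for *S100a9*, each with an adjusted p of at least 0.84 by limma. Both measured platelet genes other than *Pf4* also had negative differences, *Ppbp* of -0.26 ± 0.41 (SE) and *Gp9* of -0.26 ± 0.29, and the groups overlapped in both. With the libraries labelled WT TAC 1 and Tg Sham left out, they were -1.3 for *Ppbp* and -0.89 for *Gp9*. There the genotype difference rests on WT TAC 2 alone against both Tg TAC hearts, of which Tg TAC 1 is of the other number series. *Ppbp* had 5.61, 5.28, 6.69, 6.03, 5.22 and 5.55 in array order and *Gp9* had 5.38, 4.83, 5.73, 5.47, 4.89 and 4.79. Several values of both stood near or below the lowest detected signal of 5.27 to 5.44. Of 4 lymphatic endothelium markers, *Flt4* differed by -0.52 ± 0.28 (SE), *Ccl21a* by -0.26 ± 0.18, *Pdpn* by 0.00 ± 0.30 and *Prox1* by 0.63 ± 0.20, none called. With the same libraries left out, the differences were 0.07 for *Flt4*, -0.2 for *Ccl21a*, 0.57 for *Pdpn* and 0.89 for *Prox1*. *Flt4* had 6.37, 6.35, 5.36, 5.64, 5.47 and 5.40, and *Prox1* had 8.58, 9.30, 8.96, 9.05, 9.54 and 10.15.

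**Figure D4:**
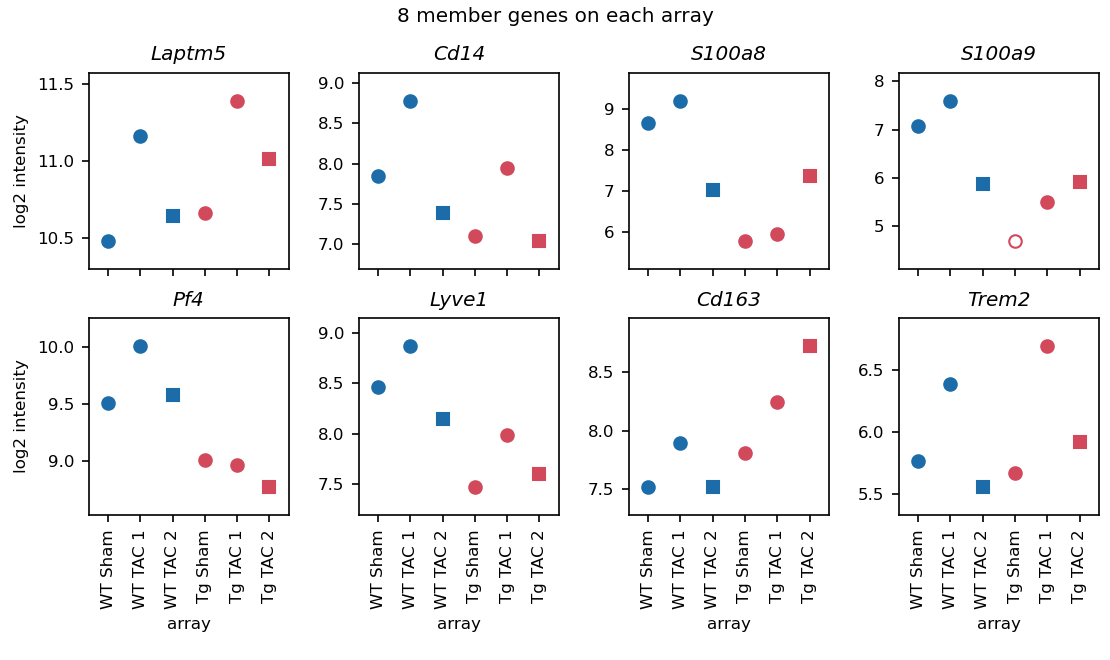
Log2 intensity of 8 genes (y axis, a scale of its own in each panel that does not start at 0) on each array (x axis). Blue marks arrays labelled WT and red those labelled Tg, circles are mice 444 to 454 and squares mice 17 and 18, and the open circle of *S100a9* was not detected. *Pf4* and *Lyve1* are higher on each blue point than on each red point, and *Laptm5*, *Cd14* and *Trem2* are highest in the library labelled WT TAC 1 and in Tg TAC 1.

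Other genes of myeloid cells were listed apart from the members, and 32 of 51 were measured. In TAC against Sham 28 of 32 had positive differences, with a median of 0.25, and none was called. In TAC mice 445 and 446 against mice 17 and 18, 28 of 32 were higher with a median of 0.30. The tetraspanin *Cd9* was called at 0.91. *Spi1*, the gene of PU.1, had 5.06, 5.87, 5.48, 5.20, 5.33 and 5.28 in array order, near or below the lowest detected signal on most arrays. The cathepsin *Ctsb* had 12.58, 12.97, 12.88, 12.67, 13.14 and 13.04, with each TAC heart above both Sham hearts. Of ligands and receptors that draw or sustain myeloid cells, 14 of 19 were measured. *Ccl12*, a ligand of *Ccr2*, had 6.19, 7.14, 7.01, 7.34, 7.80 and 7.49, and *Ccl8* had 5.67, 6.61, 4.93, 4.94, 6.68 and 7.44. The eosinophil attractant *Ccl11* ran against the macrophage genes, with 6.25, 5.53, 7.82, 6.61, 4.98 and 7.69, lowest in the library labelled WT TAC 1 and in Tg TAC 1. It differed by -2.50 ± 0.25 (SE) between the number series, with an adjusted p of 0.0049 by limma. Its value in Tg TAC 1 lay below that array's lowest detected signal of 5.34, so the size of the difference is uncertain. *Ccl8* in WT TAC 2 and in the library labelled Tg Sham also lay below that signal, 5.43 and 5.44 there.

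Of other leukocytes, lymphocytes had 2 of 15 markers measured, *Thy1* and *Cd79b*, and none of the T cell receptor chains *Cd3d*, *Cd3e* and *Cd3g* passed the detection filter. Dendritic cells had 1 of 6, *Zbtb46*, and mast cells 4 of 6. The mast cell protease *Cpa3* had 6.30, 5.76, 6.00, 4.88, 5.78 and 6.04, lowest in the library labelled Tg Sham. That value lay below the array's lowest detected signal of 5.44. *Mcpt4* was also lowest there, at 4.87, whereas *Cma1* was lowest in Tg TAC 1, at 4.87. The brightest mast cell marker, *Kit*, had 8.48, 8.53, 8.21, 8.49, 8.11 and 7.05, lowest in Tg TAC 2.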

How the data were processed

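Left ventricles of 6 mice were profiled on Illumina bead arrays, 1 array per mouse, from 500 ng of total RNA. The authors deposited probe intensities without normalization and a detection p-value per probe, made with GenomeStudio 2011.1 by the submitters' notes, and a quantile-normalized intensity table that served as an alternative. Of 45281 probes, 34885 had 1 symbol in the platform annotation, and 34807 matched RefSeq by Entrez identifier with 0 symbols changed. In R 4.3.3 with limma 3.58.1, intensities were corrected with normexp (control level inferred from detection p-values, offset 16), log2-transformed and quantile normalized. Named probes detected on 2 or more arrays were kept (17014 probes in all), and a gene took its brightest probe. limma fits used an intensity trend, and p-values were adjusted by Benjamini-Hochberg over 9577 genes. Median estimates of the fits were checked on simulated data with independent noise and no library at odds with its label. That check set no limit on false calls. Replicates were separate mice, and their number limits the precision. Each member is accounted for, and arrays are given in full for up to 4 members per role with the largest TAC difference, set markers and genes singled out by other comparisons. Members and lists were chosen with earlier results of these data known. For a gene undetected throughout a group the fold is a lower bound, the bright value over the higher of the dim value and the lowest detected signal.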

Additional observations from a re-analysis of the deposited data

Results flagged for a closer look

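*Pf4* and *Cyba* moved in opposite directions in the genotypes: both WT TAC hearts lay above WT Sham, and both Tg TAC hearts lay below Tg Sham. For *Pf4* the smallest steps from Sham were 0.07 in WT TAC 2 and -0.05 in Tg TAC 1. The share of all genes that do the same was not counted. The TAC difference in Tg minus that in WT was -0.42 for *Pf4* and -0.48 for *Cyba* on the log2 scale, and the interaction test gave each an adjusted p of 1 by limma. Each sham value is that of 1 mouse, and the libraries labelled WT TAC 1 and Tg Sham, whose *Kdm3a* signal goes against their labels, enter both differences.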

How the results depend on the processing

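The spread between TAC replicates (0.31) was wider than the main medians of TAC against Sham, WT TAC against WT Sham and Tg against WT. It was also wider than those of Tg TAC against WT TAC (-0.11) and Tg Sham against WT Sham (-0.12). A median can thus change sign and still count as within the spread. The members' median difference stayed within that spread of its value in 63 of 64 alternatives. The exception was TAC against Sham without the libraries labelled WT TAC 1 and Tg Sham, an alternative chosen after seeing the data, where it was -0.05 in place of 0.27. Leaving them out also turned *Ms4a7* (-0.09), *Ms4a6d* (-0.87), *F13a1* (-0.24), *Lyve1* (-0.31), *Trem2* (-0.20), *Lgals3* (-0.76), *Ccl9* (-0.53), *Ccl6* (-0.38), *S100a9* (-1.20), *S100a8* (-1.61), *Fcgr3* (-0.05), *Fcgr2b* (-0.26) and *Cyba* (0.14). Without the same libraries the median of Tg against WT was 0.10 in place of -0.15, and that of WT TAC against WT Sham was -0.05 in place of 0.22. Leaving out 1 TAC array at a time, the median of TAC against Sham ranged from 0.19 to 0.42 with 0 to 4 genes called, WT TAC against WT Sham from -0.05 to 0.52 with 0 to 1, Tg TAC against Tg Sham from 0.15 to 0.49 with 0 to 1, Tg TAC against WT TAC from -0.35 to 0.10 with 0 to 2, the number series from 0.36 to 0.51 with 107 to 1501, and Tg against WT from -0.28 to -0.04 with 0 to 7. The sign of TAC against Sham changed within such ranges for *Ccl9* (-0.01 to 0.54), *Ccl6* (-0.09 to 0.38), *S100a8* (-0.23 to 0.74), *Lgals3* (-0.04 to 0.43), *Tyrobp* (-0.18 to 0.10) and *Cyba* (-0.10 to 0.00).

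The replicate block, the series of the animal number as a term, raised the count of genes called to 93 in TAC against Sham, 7 in Tg TAC against WT TAC and 57 in Tg TAC against Tg Sham, and changed no other count of calls. It turned *Tyrobp* to 0.23. Over 9577 genes, replicate 1 minus replicate 2 in WT TAC correlated with the same in Tg TAC at 0.54, but with 2 pairs the mice share only a number. Only the mice 444 to 454 gave 1165 calls, with *Tyrobp* at 0.23. Without both doubted libraries 2 genes were called in Tg TAC against WT TAC and 2 in Tg against WT. Median scaling moved the median of all genes in Tg TAC against WT TAC from 0.01 to -0.12 and that of the members from -0.11 to -0.25. The mean of the probes gave 455 calls between the number series in place of 691, and *Lyz2* fell short there (adjusted p = 0.078 by limma). The methods' t-test, with Benjamini-Hochberg adjustment, called 0 genes in TAC against Sham and 0 in Tg TAC against WT TAC, and 302 and 699 genes before adjustment at their threshold. The cause of these shifts was not tested. The number of arrays and the dim probes of several members limit these results. So do the libraries at odds with the *Kdm3a* probe and the number series that divides the TAC replicates.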
